A study of Mus musculus with 31 samples.

Results

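The transcriptional state of the forebrain 12 h after a single magnesium sulfate (MgSO4) injection was compared with that of control littermates on 4 of the 31 microarrays of the study, those titled Mg 12h. The animals were uninjured NMRI mice, an outbred strain, injected at 5 days of age with 600 mg/kg MgSO4. On each array, RNA pooled from the brain hemispheres of 6 treated pups carried Cy5 and RNA pooled from control pups of the same time carried Cy3. The labels describe pools of 3 males and 3 females, subcutaneous injection and controls given phosphate buffered saline (PBS), whereas the methods describe intraperitoneal injection and untreated controls, so a share of the injection itself in the ratios cannot be told apart from that of MgSO4. The protocol text of the labels also mentions a carotid ligature, but the hypoxia-ischemia entry of these arrays reads none. The tissue was forebrain without the olfactory bulbs, and a pool is a mixture of all its cell types: fewer cells of a type and less RNA per cell cannot be told apart in it.

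Magnesium ions plug the pore of the NMDA-type glutamate receptor at resting membrane potential and compete with calcium at many channels and binding sites. Neurons take up and extrude them through dedicated transporters of the TRPM, SLC41, CNNM and NIPA families. At 5 days of age the mouse forebrain is extending axons, forming its first glutamatergic synapses and starting to myelinate. MgSO4 is given before preterm delivery to protect the fetal brain.

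The 4 arrays, named replicates 1 to 4, lay on 4 different slides together with arrays of other time points. Between 52.3% and 65.8% of the spots stood well above background in Cy3 and between 57.9% and 63.6% in Cy5, and no spot was marked as saturated (0%). The share in Cy5 minus that in Cy3 was -2.22, 3.11, 5.63 and 5.16 percentage points in replicates 1 to 4. The spiked control RNAs gave observed against expected ratios with slopes between 0.856 and 0.922, of the same sign on the 4 arrays. All 12 neuron markers and all 13 astrocyte markers of the lists used passed the filter on signal.

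Replicate 2 stood apart. Over the 23343 probes tested, the log2 ratios of replicates 1, 3 and 4 correlated with each other at r = 0.353 to 0.564, and those of replicate 2 correlated with them at 0.028, -0.155 and -0.096. Replicate 2 was closer to replicate 2 of the 6 h time point (r = 0.545) than to any array of its own time. Replicates 3 and 4, by contrast, correlated negatively with that 6 h array (-0.425 and -0.490) and with replicate 1 of 3 h (-0.383 and -0.484). They correlated positively with replicate 3 of 6 h (0.549 and 0.606). Replicate 4 was thus also closer to a 6 h array than to any array of its own time. The methods place control in Cy3 and treated samples in Cy5 on every array, and this direction was kept. The probe counts and list medians are therefore also given without replicate 2.

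No probe passed the test at 12 h. The mean log2 ratio of each probe was tested against 0 with limma, and calls required both an adjusted p (Benjamini-Hochberg) below 0.05 and a change of 1.5-fold or more (0.585 on the log2 scale). In total 0 of 23343 probes were called (0%), the smallest adjusted p being 0.063, and 4 probes lay under an adjusted p of 0.1. At unadjusted p under 0.05 without a fold threshold there were 3442 probes. With the fold threshold there were 715 probes with a higher ratio (3.06%) and 205 with a lower ratio (0.878%). The counts at unadjusted p depended on single arrays, with 1702 higher and 739 lower without replicate 2, and 309 and 161 without replicate 4. The adjusted test still called 0 probes without any single array, with smallest adjusted p-values between 0.107 and 0.322. In other fits the test did call probes. When all 19 MgSO4 arrays from 3, 6, 12 and 24 h shared a common estimate of the spread, 124 probes were called at 12 h. When signals were re-derived from the median spot intensities with normexp and loess, 50 were called.

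Most of these 124 probes had ratios of the same sign at the other times. Of them, 114 were higher and 10 lower in Cy5, 121 had the same sign in the mean of the other 15 arrays, and 59 had that sign on each of those 15 arrays. Their median size was 0.69 on the log2 scale at 12 h and 0.48, in the same direction, at the other times. Among all 23343 probes, 378 had the sign of their 12 h mean on all 15 other arrays. All 50 probes of the normexp fit were higher, and 26 of them were above 0 on each of the other 15 arrays. Both fits shared 22 probes, which are 44% of the 50 and 17.7% of the 124. Since no array has the dyes exchanged, a probe's preference for Cy5 and an effect of MgSO4 common to every time cannot be told apart in these ratios.

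The clearest case was a block of bright probes that moved in step. Ephb3, an ephrin receptor of growing axons, had log2 ratios of 0.63, 0.56, 0.81 and 0.90 in replicates 1 to 4, with a mean of 0.73 ± 0.16 (SD, n = 4). Its ratios were tight and above 0 on every array. In all, 33 probes, Ephb3 included, stayed within 0.2 of the ratios of Ephb3 on each of the 19 arrays, a limit set after the values were seen. These probes were chosen by this closeness, which fixes that they move in step and have narrow ranges. They were designed for genes with no evident common role, such as Epha5 (an ephrin receptor of axon guidance), Srek1 (a splicing regulator), Itsn1 (an endocytic scaffold), Ung (a DNA repair glycosylase) and Hemgn (a gene of blood cell precursors). Their mean log2 ratios were between 0.60 and 0.75 at 12 h, between 0.58 and 0.74 at 3 h, between 0.23 and 0.42 at 6 h and between 0.47 and 0.62 at 24 h. All of them were bright, with mean log2 Cy3 signals of 11.57 to 13.69 where the median of all probes tested was 8.01. Whether the probes share sequence was not tested, as no probe sequences were used here.

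**Figure D1:**
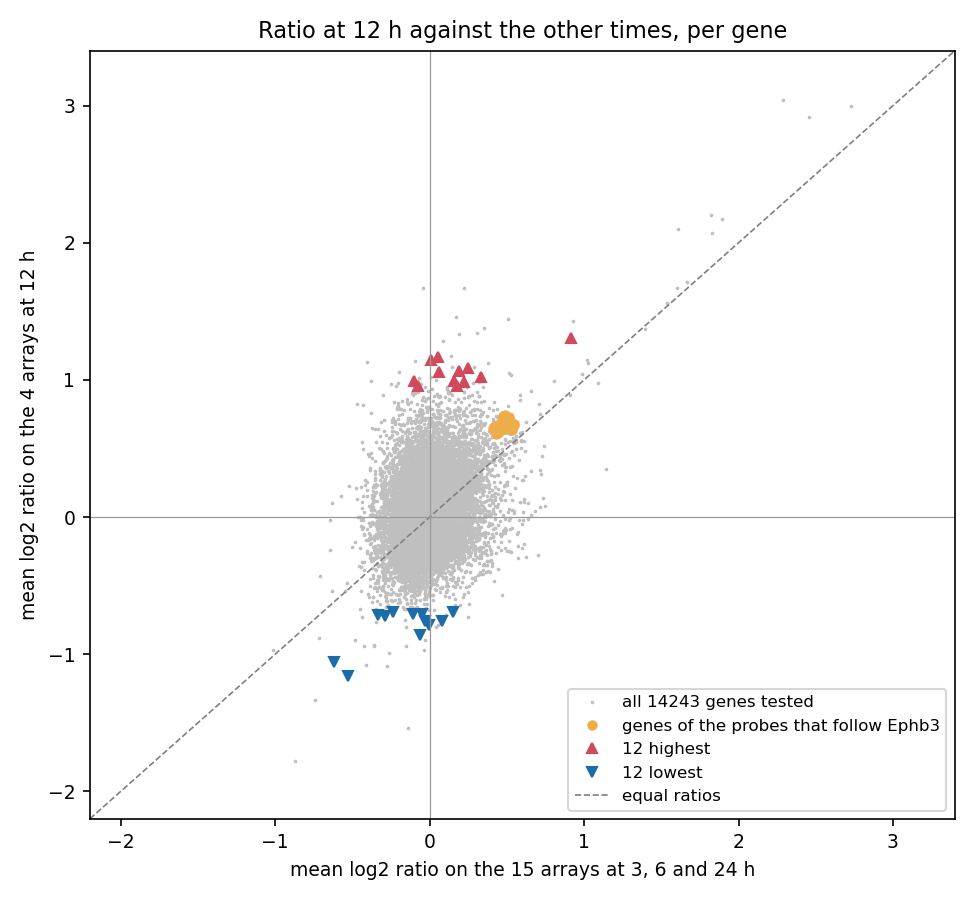
Mean log2 ratio of MgSO4 (Cy5) to control (Cy3) per gene, on the 4 arrays at 12 h (vertical axis) against the 15 arrays at 3, 6 and 24 h (horizontal axis), for 14243 genes, with the line of equal ratios. The genes of the probes that follow Ephb3 form a tight group near 0.7 at 12 h and 0.5 elsewhere. Their probes were chosen for closeness to Ephb3 on every array, so this tightness follows from the choice. The 12 highest and 12 lowest genes at 12 h lie closer to 0 at the other times. They were chosen by their 12 h values, so this position is no test of a difference between times.

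A second set of probes with large ratios was bright in Cy5 only. On 83 probes the Cy3 signal was not well above background on any array at 12 h while Cy5 was above it on 3 or more, and the opposite held for 2 probes. Cela2a, a pancreatic elastase gene chosen here after its values were seen, had log2 ratios of 3.95, 2.16, 2.51 and 3.55. The background limit allows only that its signal was at least 2.04-fold higher in Cy5 (limma adjusted p = 0.121). Vmn1r236, a vomeronasal receptor gene chosen in the same way, had ratios of 3.60, 3.38, 2.26 and 2.74 and a bound of at least 1.81-fold (limma adjusted p = 0.0713). Both had similar mean ratios at 6 h (2.58 and 3.34) and at 24 h (3.23 and 3.14). Large ratios of these probes were thus seen at 3 of the 4 times, and at 3 h the means were 0.84 and 1.26.

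The text names the 12 highest and the 12 lowest mean ratios among genes that were well above background in both channels on 3 or more arrays, had a single sign on the 4 arrays and an unadjusted limma p under 0.05. The 12 highest had mean log2 ratios between 0.95 and 1.31, and their adjusted p-values were between 0.265 and 0.333. Crygd, at 0.95, was the last inside this limit and Sema5a, a semaphorin, at 0.95 the first outside it. In 11 of these 12 genes replicate 4 gave the highest value, Epb41l4b being the exception, and in 10 the ratio nearest 0 came from replicate 2.

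Kif21b, a kinesin of neuronal microtubules, had log2 ratios of 0.80, 0.26, 1.11 and 2.41 in replicates 1 to 4 (mean 1.14 ± 0.91, SD, n = 4). Map1b, a microtubule-associated protein of growing axons, had 0.71, 0.00, 0.91 and 2.33 (mean 0.99 ± 0.98). In both genes replicate 4 was far above the rest and replicate 2 was the lowest, and their mean ratios at 6 h were -0.22 and -0.34. Grik3, a kainate-type glutamate receptor subunit, had 0.81, 0.45, 0.96 and 1.88 (mean 1.02 ± 0.61). Shisa6, an auxiliary protein of AMPA receptors, had 1.09, 0.17, 0.86 and 2.21 (mean 1.08 ± 0.85). Dagla, which makes the endocannabinoid 2-arachidonoylglycerol in neurons, had 0.89, 0.44, 0.76 and 1.85 (mean 0.98 ± 0.61). The rule that chose these 3 synaptic genes fixed their single sign at 12 h. At 24 h, which the rule did not use, their means were 0.49, 0.42 and 0.43.

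Stk3, a kinase of the Hippo pathway, had ratios of 1.54, 0.34, 0.99 and 1.81 (mean 1.17 ± 0.65), with replicates 1 and 4 close to each other. Its means at 3, 6 and 24 h lay near 0 (0.16, 0.10 and -0.12). Epb41l4b, of the membrane cytoskeleton, had the highest mean at 1.31 ± 1.11, but replicate 4 gave only 0.13, and its means at 6 and 24 h were also high (0.94 and 1.35). Nt5dc3 (1.06), Samd4b (0.99) and Nol4l (0.95) filled the list together with the lens crystallin genes Cryaa (1.07) and Crygd (0.95). Cryaa had ratios of 0.07, 0.04, 2.01 and 2.15, so that replicates 1 and 2 were near 0. The size of several of these ratios depended on the background correction. With normexp and loess the means of Stk3, Shisa6, Grik3 and Dagla were 0.19, 0.17, 0.23 and 0.18, whereas those of Kif21b and Map1b were 0.91 and 0.74.

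The 12 lowest genes had mean log2 ratios between -1.16 and -0.69, with adjusted p-values between 0.255 and 0.327. Amelx, at -0.69, was the last inside the limit and Serpina3i, at -0.68, the first outside it. Ska1, which couples kinetochores to spindle microtubules, had log2 ratios of -1.05, -0.22, -1.17 and -1 (mean -0.86 ± 0.43, SD, n = 4). Pimreg, a mitotic regulator, had -0.62, -0.32, -0.98 and -0.96 (mean -0.72 ± 0.31), and its means were also below 0 at 6 h (-0.30) and 24 h (-0.33). In both mitotic genes replicate 2 lay closest to 0. Cdh18, a neuronal cadherin, had -0.39, -0.98, -0.91 and -0.74 (mean -0.76 ± 0.26). Replicate 2 gave the lowest value here, as in Olah, and at 24 h the mean of Cdh18 was 0.25. Oas1e, of the interferon-induced oligoadenylate synthetase family, had -0.31, -0.30, -1.26 and -0.90 (mean -0.69 ± 0.47). Znrf4 had the lowest mean at -1.16 ± 0.35 and was below 0 on 11 of the other 15 arrays, and Olah (-1.05) on 12 of them. Tmem201 (-0.79), the agouti gene a (-0.76), Syngr4 (-0.71), Lrr1 (-0.71) and Isoc2b (-0.71) completed the list. With normexp and loess the means of Ska1 and Pimreg were -0.36 and -0.33, and those of Znrf4, Cdh18 and Oas1e came close to 0 (-0.08, -0.07 and -0.01).

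**Figure D2:**
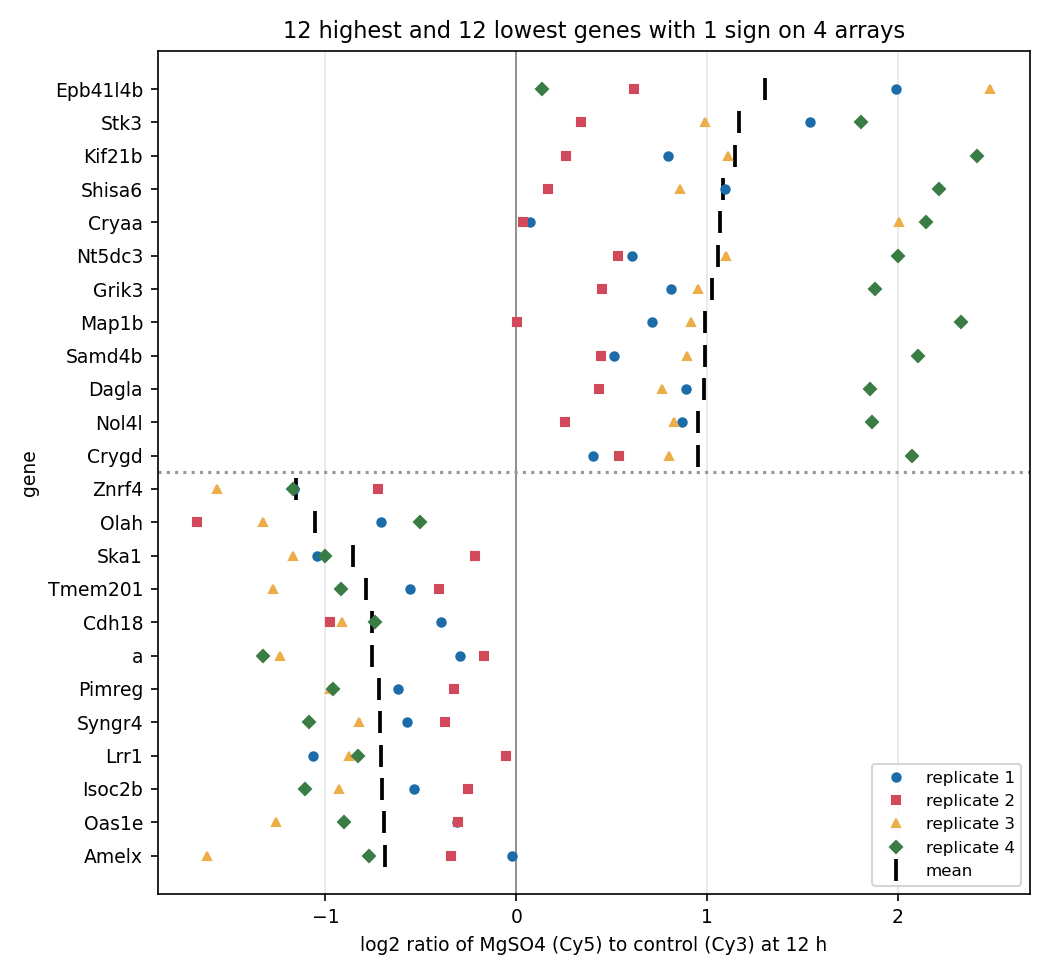
Log2 ratio of MgSO4 (Cy5) to control (Cy3) at 12 h in each of the 4 replicates (points) and their mean (bar) for the 12 highest (upper) and 12 lowest (lower) genes. Replicate 4 is the far right point in most of the highest genes, and replicate 2 is the point closest to 0 in 10 of the 12 highest and 9 of the 12 lowest.

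The gene lists put these single genes in context. Each gene was represented by its brightest probe, and a list was described by its counts and its median beside the same values over all 14243 genes tested. Over all genes the median log2 ratio was 0.01, 52.2% of genes had a mean above 0 and 47.8% below 0, 14% were above 0 on all 4 arrays and 11.1% below 0 on all 4. At unadjusted limma p under 0.05, 10% of genes were higher and 4.97% lower. No gene of any list passed the adjusted test.

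The neuronal cytoskeleton and growth cone list, which holds tubulins, stathmins, neurofilaments and axonal motors, had a median of 0.38 and 23 of its 25 genes above 0. Only 3 of the 25 were above 0 on all 4 arrays, where 14% of all genes were. The medians of the list were 0.36, -0.21, 0.60 and 0.68 in replicates 1 to 4, so that replicate 2 went the other way. At unadjusted p, 5 of its genes were higher and 0 lower, and without replicate 2 the median was 0.56 with 18 higher and 0 lower, where 19.7% and 12.2% of all genes were then higher and lower. Dpysl2, a collapsin response mediator of axon growth, had log2 ratios of 0.72, -0.04, 1.16 and 1.53. Kif5a, an axonal transport kinesin, had 0.57, 0.12, 0.76 and 1.39. The list median was 0.31 with normexp and loess.

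The synaptic vesicle and release list had a median of 0.28 and 23 of 27 genes above 0, with 9 higher and 0 lower at unadjusted p. Its array medians were 0.17, 0.00, 0.49 and 0.59, and its median was 0.50 without replicate 2 and 0.15 with normexp and loess. Bsn and Pclo, the giant scaffolds of the presynaptic active zone, were above 0 on the 4 arrays, with means of 0.66 ± 0.45 and 0.51 ± 0.18 (SD, n = 4). With normexp and loess these means were 0.15 and 0.33. Pclo also had means of 0.37, 0.41 and 0.53 at 3, 6 and 24 h, and other probes of Pclo gave means down to -0.36 at 12 h. The postsynaptic scaffold list, whose proteins anchor glutamate and GABA receptors, had a median of 0.27 with 18 of 20 genes above 0 and 6 higher at unadjusted p. Dlg3 and Dlgap2, scaffolds of the postsynaptic density, had means of 0.56 ± 0.46 and 0.49 ± 0.36, and that of Dlgap2 was 0.06 with normexp and loess. The calcium channel list had a median of 0.22 with 12 of 16 genes above 0, and Cacna1a, the pore subunit of P/Q-type channels, was tight at 0.18, 0.40, 0.38 and 0.34. With normexp and loess the mean of Cacna1a was 0.09.

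The 5 NMDA receptor subunits measured all had means above 0, but none was above 0 on all 4 arrays. Grin1, the obligatory subunit, had log2 ratios of 0.28, -0.51, 0.59 and 1.07 (mean 0.36 ± 0.66, SD, n = 4, limma adjusted p = 0.475), and another of its probes gave a mean of -0.27. Grin2b, the main partner subunit in the newborn forebrain, had -0.09, -0.04, 0.61 and 1.20 (mean 0.42 ± 0.61, limma adjusted p = 0.400), and its other probe had a mean of 1.01. Grin3a, a subunit that lowers magnesium block, had 0.64, -0.46, 0.67 and 1.65 (mean 0.62 ± 0.86). Grin2a (0.21 ± 0.44) and Grin2c (0.04 ± 0.47) had arrays on both sides of 0, and Grin2a was highest in replicate 2. In the list as a whole the medians were 0.28, -0.23, 0.59 and 1.07 in replicates 1 to 4, and at 3, 6 and 24 h the median over the subunits was 0.00, -0.09 and 0.06. Of the 9 AMPA and kainate receptor subunits, 6 were above 0, and Gria4, an AMPA receptor subunit, had 0.40, 0.18, 0.35 and 0.40 with a mean at 24 h of the same size (0.33).

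The magnesium transport list had a small median that was above 0 on each array. Its medians were 0.15, 0.11, 0.07 and 0.19 in replicates 1 to 4, its median over genes was 0.13, and 16 of the 21 genes measured were above 0, 6 of them on all 4 arrays. At unadjusted p, 2 of the 21 genes were higher and 0 lower, near the shares of all genes (10% and 4.97%). Nipal3, a NIPA-like family member, had log2 ratios of 1.19, 0.36, 0.69 and 1.42 (mean 0.91 ± 0.48, SD, n = 4, limma adjusted p = 0.266). Cnnm4, of the cyclin M family of magnesium extruders, had 0.49, -0.01, 0.69 and 1.21 (mean 0.60 ± 0.51, limma adjusted p = 0.315), and its relative Cnnm1 had a mean of 0.45 ± 0.53. In these 3 genes replicate 4 was the highest and replicate 2 the lowest. The means of Nipal3 and Cnnm4 were 0.32 and 0.13 with normexp and loess.

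The SLC41 transporters were closer to 0. Slc41a1, a magnesium exchanger of the plasma membrane, had 0.40, 0.02, 0.06 and 1.02 (mean 0.38 ± 0.46). Slc41a2 (0.22 ± 0.17) and Slc41a3 (0.23 ± 0.10) were above 0 on the 4 arrays. Trpm7, the ubiquitous magnesium-permeable channel kinase, had 0.30, 0.29, 0.02 and 0.19 (mean 0.20 ± 0.13), against means of 0.34 at 6 h and 0.36 at 24 h. Its relative Trpm6, the channel of epithelial magnesium uptake, had the lowest mean of the list at -0.29 ± 0.50, with replicate 2 alone above 0. Among the others above 0 were Cnnm2 (0.15 ± 0.19), Cnnm3 (0.16 ± 0.05), Nipa1 (0.08 ± 0.10), Nipa2 (0.11 ± 0.22), Nipal2 (0.13 ± 0.79), Magt1 (0.06 ± 0.17), Mmgt1 (0.12 ± 0.33) and Mmgt2 (0.04 ± 0.15). Tusc3 (-0.14 ± 0.06), the mitochondrial magnesium channel gene Mrs2 (-0.20 ± 0.47), Fxyd2 (-0.10 ± 0.18) and Egf (-0.08 ± 0.27) had means below 0.

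**Figure D3:**
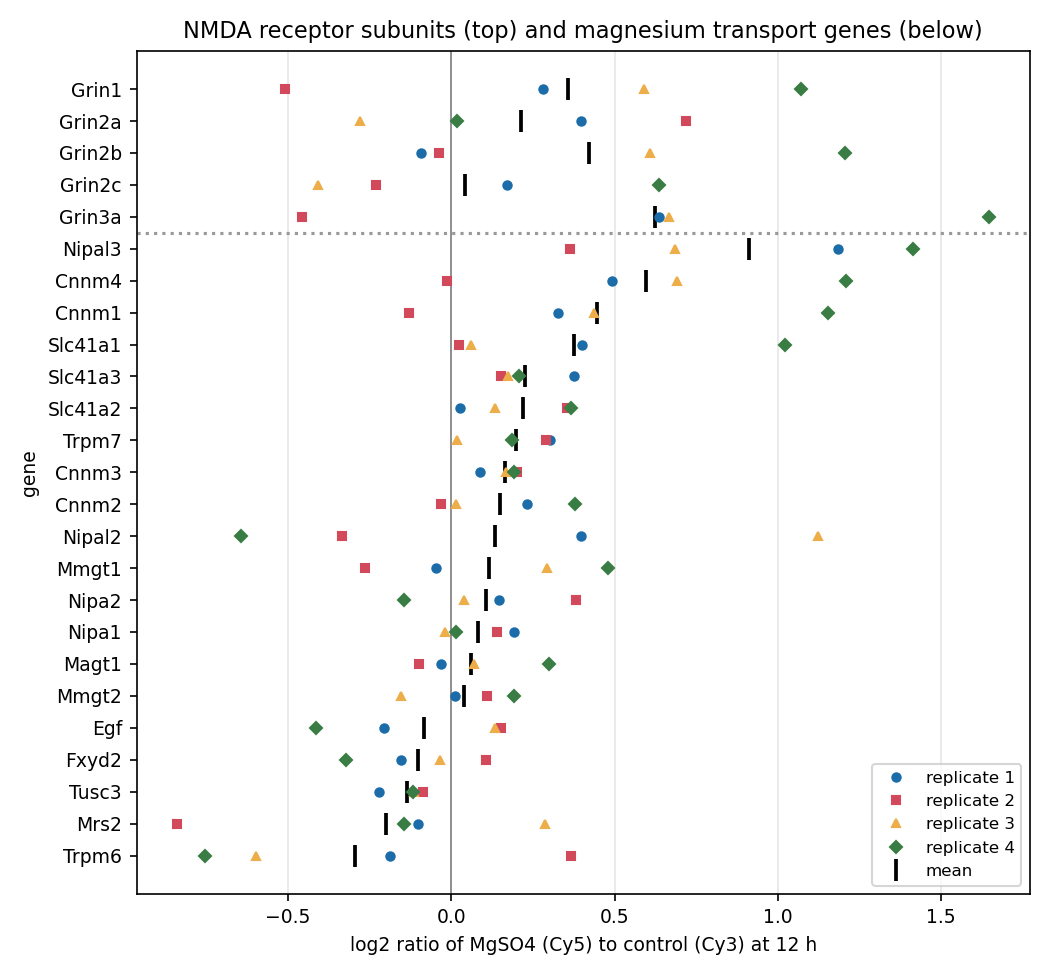
Log2 ratio of MgSO4 (Cy5) to control (Cy3) at 12 h in each of the 4 replicates (points) and their mean (bar) for the 5 NMDA receptor subunits measured (upper) and 20 of the 21 magnesium transport genes measured (lower, in the order of their means). Nipal3 has the highest mean of the magnesium transport genes (0.91) and Trpm6 the lowest (-0.29). Replicate 4 is the highest point and replicate 2 the lowest in Grin1, Grin3a, Cnnm1, Cnnm4 and Slc41a1.

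In most other neuronal lists replicate 2 was again the lowest array and replicate 4 the highest. Axon guidance genes had a median of 0.24, with 33 of 37 above 0, 13 above 0 on all 4 arrays and 8 higher at unadjusted p, Ephb3 and Epha5 of the bright block among them. Cortical excitatory neuron markers had a median of 0.31 (array medians 0.23, -0.32, 0.53 and 0.69). Tbr1, a transcription factor of deep cortical layers, had 0.60, 0.07, 0.86 and 1.43. Thalamic markers had a median of 0.39 with 6 of 7 above 0. Striatal markers, in contrast, had a median of -0.04, with 4 of 10 above 0.

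Interneuron markers had a median of 0.09, and Slc32a1, the vesicular GABA transporter gene, had a mean of 0.59 ± 0.51 (SD, n = 4). Hypothalamic markers, most of them neuropeptide genes, had a median of -0.14 with 8 of 9 below 0. Avp, which encodes vasopressin, had log2 ratios of -0.79, 0.24, -1.19 and -0.51. Here too replicate 2 was the exception.

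Immediate early genes, which neurons transcribe upon activity, had a median of 0.22 with 15 of 20 above 0 and 3 higher at unadjusted p. Egr1 had log2 ratios of 0.15, 0.20, 0.72 and 1.499 (mean 0.64 ± 0.63, SD, n = 4), and Egr4 had 0.36, -0.12, 0.96 and 1.32. Circadian clock genes had a median of 0.26 with 13 of 15 above 0 and 4 higher at unadjusted p. Clock, a core activator of the clock, had 0.05, 0.38, 0.82 and 0.61, and a mean of 0.07 with normexp and loess. The nuclear receptor gene Rora had 0.89, 0.47, 0.06 and 1.17, but its Cy3 signal was above background on a single array. Heat shock chaperones had a median of 0.22 with 13 of 15 above 0, and the mitochondrial chaperone Hspd1 had 0.53, 0.18, 0.64 and 0.83. Glucocorticoid and stress response genes had a median of 0.10 with 12 of 17 above 0, and Mt1, a metallothionein, had 0.67, 0.55, 0.66 and 0.29, against a mean of 0.70 at 6 h.

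The cytosolic and mitochondrial ribosomal protein lists had small medians of opposite sign. Cytosolic ribosomal protein genes had a small median of 0.07 but a narrow one, with array medians of 0.09, 0.05, 0.08 and 0.09. Of the 55 genes of this list, 34 had means above 0 and 21 below 0. At unadjusted p 14 were higher and 1 lower, and on the 4 arrays 19 were above 0 and 6 below 0. Rpl35 had log2 ratios of 0.50, 0.77, 0.64 and 0.58, and Rps24 had 0.57, 0.64, 0.43 and 0.46. Both had much the same means at 24 h (0.60 and 0.53), and the list median was above 0 on each of the 19 MgSO4 arrays. Ribosomal protein genes have many processed copies in the genome, so their probes may share signal, and other probes of Rps24 gave means down to 0.02. Mitochondrial ribosomal protein genes had a median of -0.07 with 45 of 58 below 0, 5 lower and 0 higher at unadjusted p, and array medians of -0.12, 0.11, -0.17 and -0.20. Mrpl19 had -0.45, -0.08, -0.48 and -0.59. Proteasome subunits had a median of -0.09 with 20 of 31 below 0 and Psmd13 at -0.28 ± 0.09. Respiratory chain genes (median 0.03), cholesterol biosynthesis genes (0.03) and splicing factors (0.14) had members on both sides of 0, with 4, 2 and 2 genes higher and 1, 1 and 1 lower at unadjusted p.

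The blood list was the only one with every measured gene below 0. Its 7 genes had a median of -0.38, 5 were below 0 on the 4 arrays and 3 were lower at unadjusted p. The array medians were -0.20, -0.20, -0.67 and -0.39, so replicate 2 did not differ here. Hba-a1, an alpha globin gene, had log2 ratios of -0.20, -0.45, -0.28 and -0.61 (mean -0.38 ± 0.18, SD, n = 4), and Alas2, which starts heme synthesis in erythroid cells, had -0.04, -0.51, -0.83 and -0.55. The globin genes have near-identical copies whose probes can share signal. At 24 h the list median was also below 0 on all 4 arrays (-0.58 to -0.29), and at 6 h on 5 of 7. The blood content of the hemispheres at collection was not measured, and its part in the ratios was not tested.

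Cell cycle and progenitor markers had a median of -0.07, with 8 of 20 below 0 on the 4 arrays and 4 lower at unadjusted p. Aurka, a mitotic kinase, had log2 ratios of -0.19, -0.38, -0.60 and -0.68, and Cdk1, the kinase that starts mitosis, had -0.24, -0.12, -0.92 and -0.66, with another probe of Cdk1 at 0.46. Inflammation genes had a median of -0.09, with 9 of the 14 measured below 0 and 2 lower at unadjusted p. Isg15 and Ifit3, which interferon induces, had means of -0.66 ± 0.54 and -0.40 ± 0.24 (SD, n = 4), replicate 2 being above 0 in Isg15 alone of the pair. With normexp and loess the mean of Ifit3 was -0.04. Hypoxia response genes had a median of -0.04, and Slc2a1, the glucose transporter of the blood-brain barrier, had a mean of 0.42 ± 0.13 against 0.52 at 6 h.

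Of the other cell types, microglial markers had a median of -0.13 with 9 of 12 below 0, while Cx3cr1 (0.37 ± 0.27) and Itgam (0.28 ± 0.15) were above 0 on the 4 arrays. Astrocyte markers had a median of 0.12, and the bicarbonate cotransporter gene Slc4a4 had 0.49, 1.02, 0.49 and 1.49. With normexp and loess the mean of Slc4a4 was 0.07. Oligodendrocyte lineage markers had a median of 0.04, and Mbp, the myelin basic protein gene, had 0.63, -0.09, 0.84 and 1.39, with another probe at -0.15. Endothelial (-0.01), choroid plexus (0.07) and meningeal (-0.01) markers had medians near that of all genes, with 1, 0 and 0 genes higher and 1, 0 and 0 lower at unadjusted p. Of the sex-linked genes, Xist had log2 ratios of -0.60, 0.65, 0.74 and -0.37 and the Y-linked Eif2s3y had 0.59, 0.19, -0.25 and 0.02, and their part in the other ratios was not tested.

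The list medians leaned on single arrays and on the background correction, as 3 settings show: without replicate 2, without replicate 4, and normexp with loess on the 4 arrays. The medians of the receptor, channel, scaffold and axon guidance lists were larger without replicate 2 and smaller under the other settings. Calcium channels had medians of 0.30, 0.06 and 0.05 in that order, NMDA receptor subunits 0.57, 0.16 and 0.05, and AMPA and kainate receptor subunits 0.29, 0.03 and 0.06. Postsynaptic scaffolds had 0.34, 0.20 and 0.10, and axon guidance genes 0.29, 0.14 and 0.08. Without replicate 4 the cytoskeleton and growth cone median was 0.23 and that of the synaptic vesicle list 0.17. Cortical markers had 0.45, 0.17 and 0.14, thalamic markers 0.51, 0.23 and 0.08, and interneuron markers 0.25, -0.02 and 0.00. Hypothalamic markers had -0.29, -0.04 and -0.06, and microglial markers -0.23, -0.02 and -0.04. Inflammation genes had -0.18, 0.00 and -0.03, so that without replicate 4 their median was at 0. Immediate early genes had 0.27, 0.15 and 0.04, circadian clock genes 0.36, 0.15 and 0.07, heat shock chaperones 0.35, 0.15 and 0.15, and splicing factors 0.22, 0.09 and 0.08. Cell cycle and progenitor markers had -0.10, -0.13 and -0.03, all on the side of the 4-array median. Astrocyte markers had 0.23, 0.08 and 0.07, and oligodendrocyte lineage markers 0.11, -0.02 and 0.04. Mitochondrial ribosomal protein genes had -0.16, -0.06 and -0.12, cytosolic ones 0.11, 0.06 and 0.18, and respiratory chain genes -0.02, 0.04 and 0.05. The blood list had -0.40, -0.32 and -0.29 and the magnesium transport list 0.16, 0.15 and 0.0459.

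**Figure D4:**
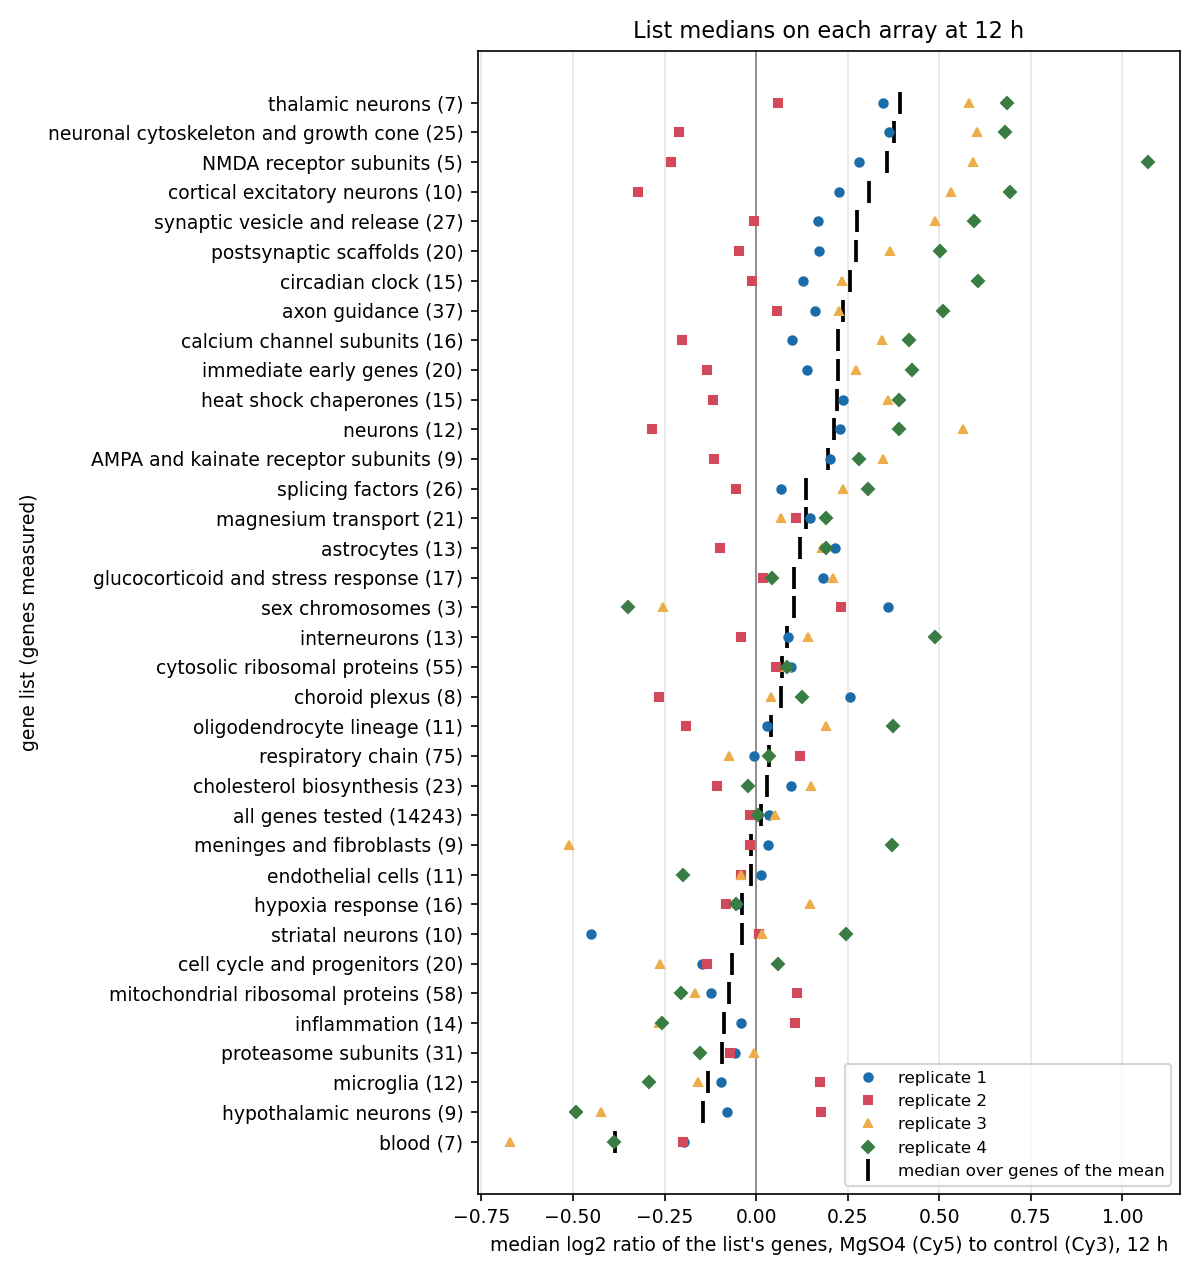
Median log2 ratio of MgSO4 (Cy5) to control (Cy3) over the genes of each list on each array at 12 h (points), with the median over genes of the mean ratio (bar) and the number of genes measured in parentheses. Replicate 2 (squares) lies below the other arrays in most lists at the top and above them in several at the bottom, and blood lies below 0 on the 4 arrays.

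Whether 12 h differed from the other times was asked with contrasts in a limma fit over the 19 arrays, in which a dye effect equal at all times cancels. Of 23200 probes, 0 were called (0%) for 12 h minus 3 h, 6 h, 24 h or the mean of these 3 times, with smallest adjusted p-values of 0.858, 0.0507, 0.998 and 0.643. At unadjusted p under 0.05 with the fold threshold, the largest of these sets was that against 6 h, with 815 probes higher (3.51%) and 501 lower (2.16%) at 12 h. Against 24 h there were 108 higher (0.466%) and 62 lower (0.267%), and against 3 h 120 (0.517%) and 191 (0.823%). The probe nearest to a call, chosen after its value was seen, was that of Cntrob, a centriole duplication gene, which had mean log2 ratios of 0.16 at 12 h and -0.80 at 6 h (difference 0.95). It passed when the slide was a random block (adjusted p = 0.0206) and, with Igf2bp2 (adjusted p = 0.0377), without replicate 1.

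The cytoskeleton and growth cone median ran from -0.21 to 0.68 at 12 h, from -0.74 to 0.78 at 6 h, from -0.39 to 0.21 at 3 h and from 0.01 to 0.12 at 24 h. The synaptic vesicle median ran from 0.00 to 0.59 at 12 h, with a highest value of 0.42 at the other times, and that of the NMDA receptor subunits from -0.23 to 1.07, with a highest value of 0.56 elsewhere. Slides 1 to 4 each carried an array of 12 h and of 24 h and 1 or 2 of 6 h. Within slides, the cytoskeleton and growth cone list was higher at 12 h than at 6 h on 4 of 4 slides (by 0.02 to 1.40). It was higher than at 24 h on 3 of 4 (differences of -0.23 to 0.56). The synaptic vesicle list was higher than at 6 h on 4 of 4 slides (by 0.19 to 1.26) and than at 24 h on 3 of 4 (-0.03 to 0.42). For magnesium transport genes the 12 h median was above that of 24 h on 4 of 4 slides (by 0.03 to 0.14) and above that of 6 h on 3 of 4. Such agreement was not particular to these lists. Stress response, circadian clock and astrocyte lists were also above 24 h on 4 of 4 slides. Lists above 6 h on 4 of 4 included cholesterol biosynthesis, heat shock chaperones and oligodendrocyte lineage. The median of all genes tested was above 24 h on 2 of 4 and above 6 h on 3 of 4. With the slide as a fixed block, 0 probes were called against 6 h or 24 h (smallest adjusted p 0.169 and 0.970).

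**Figure D5:**
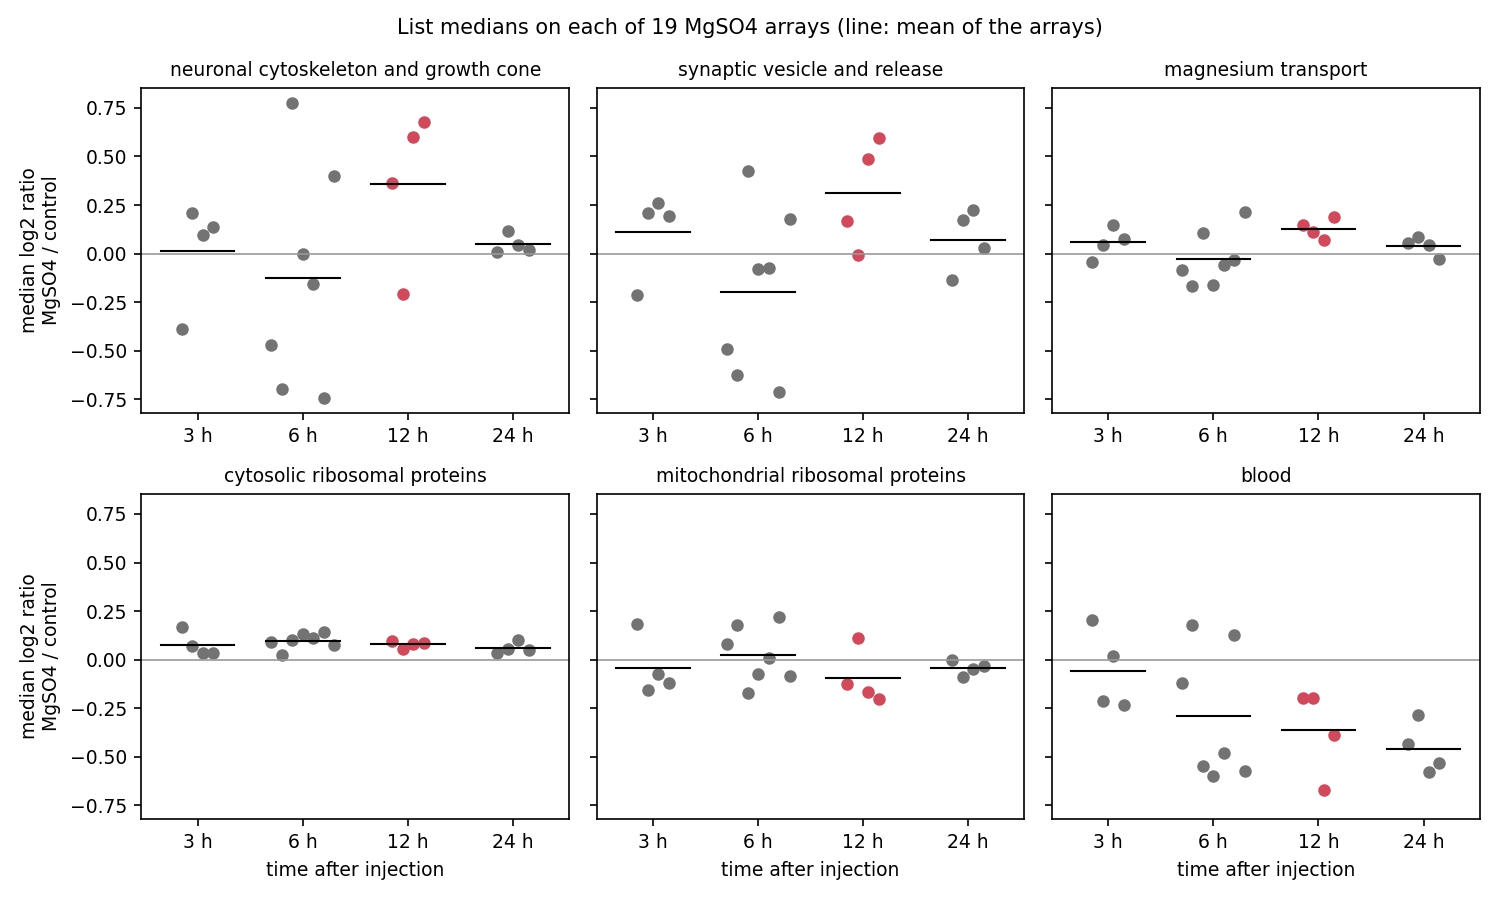
Median log2 ratio of MgSO4 to control over the genes of 6 lists (panels) on each of the 19 MgSO4 arrays by time after injection (points, 12 h in red), with the mean of the arrays (line). The cytoskeleton and growth cone list runs from -0.74 to 0.78 at 6 h and from -0.21 to 0.68 at 12 h. The synaptic vesicle list runs from -0.71 to 0.42 at 6 h and from -0.005 to 0.59 at 12 h. Cytosolic ribosomal proteins are narrow and above 0 throughout, and blood is below 0 on all arrays at 12 h and 24 h.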

How the data were processed

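RNA was labelled with Cy3 or Cy5 and hybridized to Agilent whole mouse genome arrays. Feature Extraction 10.5.1.1 read the scans, and the intensities that the authors deposited had been corrected for background and dye bias array by array. The deposited series-wide values are the authors' log10 ratios, which served as an alternative. Arrays were assigned to groups by their titles. Here, log2 ratios (Cy5 over Cy3) were formed from the deposited intensities, spots marked as non-uniform or population outliers were left out (at most 0.507% at 12 h), and replicate spots were averaged. A probe was tested if 66.7% or more of the 4 arrays had it well above background in Cy3 or in Cy5, and its mean ratio was set against 0 with limma 3.58.1 (R 4.3.3). Of 39429 probes, 27427 had a single symbol through RefSeq accessions. The named genes are those of the ranks stated in the report, the 2 smallest unadjusted p-values of each list, and all magnesium transport and NMDA receptor genes, of which a few are not reported here. Members and lists were chosen with earlier results of these data known. The script was tested on simulated data. With so few arrays the estimates are imprecise. The labels call the arrays biological replicates, but the methods describe fewer independent samples per time point than the 4 arrays at 12 h and the 7 at 6 h. Whether some arrays of a time share a sample was not tested. The p-values at 12 h and of the time contrasts assume that none do. The slide was tested as a block. Alternatives were other background corrections, centring, filters, tests and left-out arrays.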

Additional observations from a re-analysis of the deposited data

Results flagged for a closer look

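Of 151 values that rest on 4 arrays at 12 h (named genes and list medians), 4 had a single array set apart from the others by Dixon's test, where chance alone sets apart about 1 in 20. The log2 ratios of Bsn and Cx3cr1 were high in replicate 4, at 1.33 and 0.77. The median of the hypoxia response list was high in replicate 3, at 0.15, and that of the astrocyte list was low in replicate 2, at -0.10.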

How the results depend on the processing

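The count of 0 called probes at 12 h held with centring, without a filter on dim probes, with the filter in both channels, with marked spots kept, with the series table, with gene-named probes alone, under the methods' t-test after Benjamini-Hochberg adjustment (smallest adjusted p 0.119) and without any single array. It became 50 with normexp and loess, 124 with all 19 MgSO4 arrays in 1 fit and 120 with the slide as a random block in that fit, and the cause was not tested. At unadjusted p with 1.5-fold, 715 probes were higher and 205 lower. These became 118 and 40 with normexp and loess, 236 and 96 under the methods' t-test and 1028 and 873 without the filter. The higher count was 425 with the filter in both channels, and the lower was 92 with gene-named probes alone. Leaving out single arrays gave 309 to 1702 higher and 161 to 739 lower.

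List medians moved by more than the spread of the 4 arrays in 7 of 385 values, and 10 of 35 lists changed sign under at least 1 alternative. With normexp and loess, magnesium transport was 0.0459, cytosolic ribosomal proteins 0.18 and thalamic markers 0.0845. The ribosomal list was 0.0216 as a mean over probes and 0.04 to 0.11 without single arrays. Endothelial markers were -0.13 with the filter in both channels, and all genes -0.0418 without the filter. Of 1136 values of named genes 40 moved, each of them with normexp and loess, and 17 changed sign.

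Calls of 12 h minus 6 h were 1 with the slide as a random block and 0 to 2 without single arrays. Whether the replicate numbers pair the arrays is not settled by the values. The deviations of same-numbered arrays correlated at -0.265 to 0.661. Replicates 1, 2 and 3 of 12 h were closest to their own number at 6 h (0.233, 0.661 and 0.302), and replicate 4 was not. At 3 h and 24 h some were closest to their own number and others were not. With the replicate number as a block, 0 probes were called in each of the 4 time contrasts, as without it. The fixed slide block and the list medians without replicate 2 were chosen after seeing the data, and no slide held both 3 h and 12 h. Probes near background limit the counts, since 333 of the 715 higher probes were among the 5836 dimmest.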
